A study of Mus musculus with 24 samples.

Results

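The comparison described here is that of brown fat from mice labelled BATdKO with brown fat from mice labelled Cre-, both housed at 30°C, the thermoneutral arm of a study on loss of the TBLR1/TBL1 cofactors. It used 12 of the 24 libraries of the series, 6 per genotype and chosen by their labels alone. The remaining 12 libraries came from mice of the same genotypes that were cooled in steps and then kept for 6 days at 8°C, so that temperature and length of housing cannot be told apart, and were used for the shared estimate of the spread and for 1 comparison at the end. The 6 days are those of the labels, and the study's text gives 3 days at 8°C for the mice used for RNA sequencing. All mice, controls included, carried floxed alleles of both genes (TBLR1 fl/fl;TBL1 fl/fl) on a C57BL6/N background and had received tamoxifen. The BATdKO mice also carried Ucp1CreERT2, a tamoxifen-inducible recombinase driven by the Ucp1 promoter. It acts in cells that use this promoter, chiefly brown adipocytes, while other cells of the depot keep both genes. The Cre- mice lacked the recombinase, so that the transgene itself and the deletion cannot be told apart. The labels give females, raised at 22°C and moved straight to 30°C for 4 days, starting 3 weeks after the last tamoxifen injection. The age at injection is 5 weeks in the study's methods, and the labels give the same number in years. Each library is 1 mouse, and the labels pair no mice across the genotypes.

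TBL1 (gene Tbl1x) and TBLR1 (gene Tbl1xr1) are related WD-repeat proteins of the NCoR corepressor complex, which also holds the histone deacetylase HDAC3 and GPS2. They sit where corepressors are exchanged for coactivators on nuclear receptors and other factors, so that their loss can raise or lower target genes. Brown fat burns fatty acids for heat through UCP1 in mitochondria. It takes up lipid with lipoprotein lipase and CD36, stores it in droplets, and is switched on by noradrenaline through cyclic AMP. At 30°C a mouse needs little of this heat, and brown fat is at rest.

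The labels were compared with the data first. Total counts were 699703 in the library labelled Cre- replicate 4 and 4653609 to 11527643 in the other 11 libraries. The libraries labelled Cre- replicate 6 and BATdKO replicate 6 stood apart from their groups: for Tbl1xr1, Tbl1x, Elmod2, Nabp1 and other genes described below each held a value like those of the other genotype. Whether these 2 labels were exchanged was not tested. A measure from other mice gave the same picture. For the 171 genes that were higher and the 306 that were lower in BATdKO at 8°C, called in the 8°C libraries alone, the difference of their mean log2 CPM (counts scaled to library size) was -0.06 to 0.89 in Cre- replicates 1 to 5 and 0.93 to 1.36 in BATdKO replicates 1 to 5. It was 1.48 in Cre- replicate 6 and 0.64 in BATdKO replicate 6. The ranges of replicates 1 to 5 nearly met, at 0.89 in Cre- replicate 4 and 0.93 in BATdKO replicate 2. The lowest values were those of Cre- replicates 1 (-0.06) and 3 (0.19), which held the most skeletal muscle RNA (below). The part of muscle RNA in the measure was not tested. At 8°C this measure was -0.20 to 0.28 in Cre- and 1.31 to 1.86 in BATdKO. The labels were kept as given, and for genes that were called log2 fold changes are given both with all 12 libraries and without both replicate 6 libraries. Both libraries were set aside because their profiles resembled the other genotype, so that calls made without them are partly fixed by that choice and are not independent support for a difference.

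**Figure D1:**
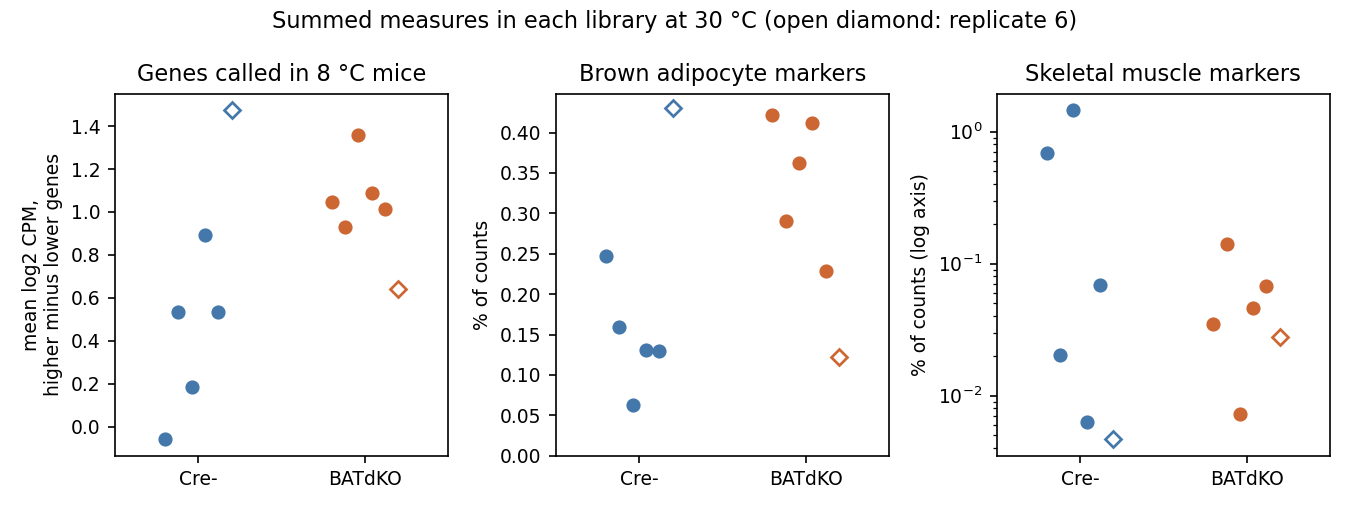
Each point is 1 library at 30°C, with labelled genotype on the horizontal axis and replicate 6 as an open diamond. The vertical axes show, from left, the mean log2 CPM of the 171 genes higher minus that of the 306 genes lower in BATdKO at 8°C, the percentage of counts in 6 brown adipocyte markers, and the percentage of counts in 15 skeletal muscle markers on a log axis. In the first and middle panels each diamond lies in the range of the other genotype or beyond it, and in the right panel Cre- replicates 1 and 3 lie above every other library.

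Brown adipocyte markers were detected in every library (Ucp1, Cidea, Adipoq, Fabp4, Plin1 and Cox8b), but they held only 0.0622% to 0.43% of the counts. The 13 hepatocyte markers held 3.6% to 5.31% in all 12 libraries, with albumin (Alb) at 5690 to 14400 CPM. The 22 genes of the major urinary protein family, whose reads cannot be divided securely among near-identical copies, held a further 11.3% to 16.5%. No hepatocyte marker was called between the genotypes by edgeR or DESeq2 (0 of 13 at an unadjusted p under 0.05). Without both replicate 6 libraries, however, all 13 had a log2 fold change below 0 (median -0.08). With all 12 libraries 3 were above 0 (median -0.11). In replicates 1 to 5 these markers held 4.19% to 5.31% of the counts in Cre- and 3.6% to 4.63% in BATdKO. Both Xist, a transcript of the inactive X chromosome, at 28 to 50.2 CPM and the Y-linked Ddx3y at 21.8 to 36.5 CPM were read in each of the 12 libraries, which are labelled female, while a figure legend of the study gives males for RNA sequencing data. Skeletal muscle markers held 0.689% of the counts in Cre- replicate 1 and 1.46% in Cre- replicate 3, against at most 0.141% in the other 10 libraries. The part of these signals in the results below was not tested.

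The targeted genes were not lower in the libraries labelled BATdKO. Tbl1xr1 (chr3:22076652-22216594) was at 16.4, 21.4, 21.2, 24.6 and 21.9 CPM in Cre- replicates 1 to 5 and at 42, 32.1, 37, 37 and 29.8 CPM in BATdKO replicates 1 to 5. Cre- replicate 6 held 38.6 CPM and BATdKO replicate 6 held 17 CPM, each within the other genotype's range. With all 12 libraries the log2 fold change of BATdKO over Cre- was 0.44 ± 0.17 (SE, adjusted p = 0.36), and an exact two-sided permutation test over the 924 assignments of the 12 libraries gave p = 0.115 (0.123 after Benjamini-Hochberg adjustment over 4 genes). Without both replicate 6 libraries it was 0.80 ± 0.11 (SE, adjusted p = 0.000113).

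Tbl1x (chrX:77511013-77662983) followed the same order. It was at 39.4, 45.6, 35.7, 31.4 and 40.4 CPM in Cre- replicates 1 to 5, and BATdKO replicates 1 to 5 held 57.5, 55.8, 54.5, 59.9 and 53.4 CPM. The replicate 6 libraries were again crossed, at 53.5 CPM for Cre- and 39.7 CPM for BATdKO. Its log2 fold change was 0.35 ± 0.11 (SE, adjusted p = 0.205) with all 12 libraries (exact permutation p = 0.026, adjusted 0.052) and 0.51 ± 0.09 (SE, adjusted p = 0.00191) without both. The kit reads 1 tag at the 3′ end of each transcript, and the floxed exons are not given in the sources used here. Tags outside the deleted part do not report the deletion, so neither gene checks the labels. All directions below are those of libraries as labelled.

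Of the other subunits, Ncor1 was at 213 to 241 CPM in Cre- and 261 to 289 CPM in BATdKO replicates 1 to 5, a log2 fold change of 0.27 ± 0.06 (SE, adjusted p = 0.0184) without both replicate 6 libraries and 0.16 ± 0.07 (SE, adjusted p = 0.431) with them. Hdac3 and Gps2 had log2 fold changes of -0.06 and -0.03 without both and were not called.

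With all 12 libraries as labelled, 0 of 12485 tested genes passed an adjusted p of 0.1 in edgeR (0% called). At an unadjusted p under 0.05 there were 1303 genes (10.4%), 661 of them higher in BATdKO. DESeq2 on the same libraries called 90 genes (0.807% of those it tested), 48 higher and 42 lower. Without both replicate 6 libraries edgeR called 500 of 12500 tested genes (4.00%), 295 higher (2.36%) and 205 lower (1.64%), and 80 of the 90 DESeq2 genes were among them. Leaving out 1 library at a time gave between 0 and 369 calls, the most without Cre- replicate 6, then 67 without Cre- replicate 2, 47 without BATdKO replicate 4 and 41 without BATdKO replicate 6. In what follows a gene is called higher or lower where it passed the threshold without both replicate 6 libraries. None passed it with all 12, for which the size of the change is given beside it.

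**Figure D2:**
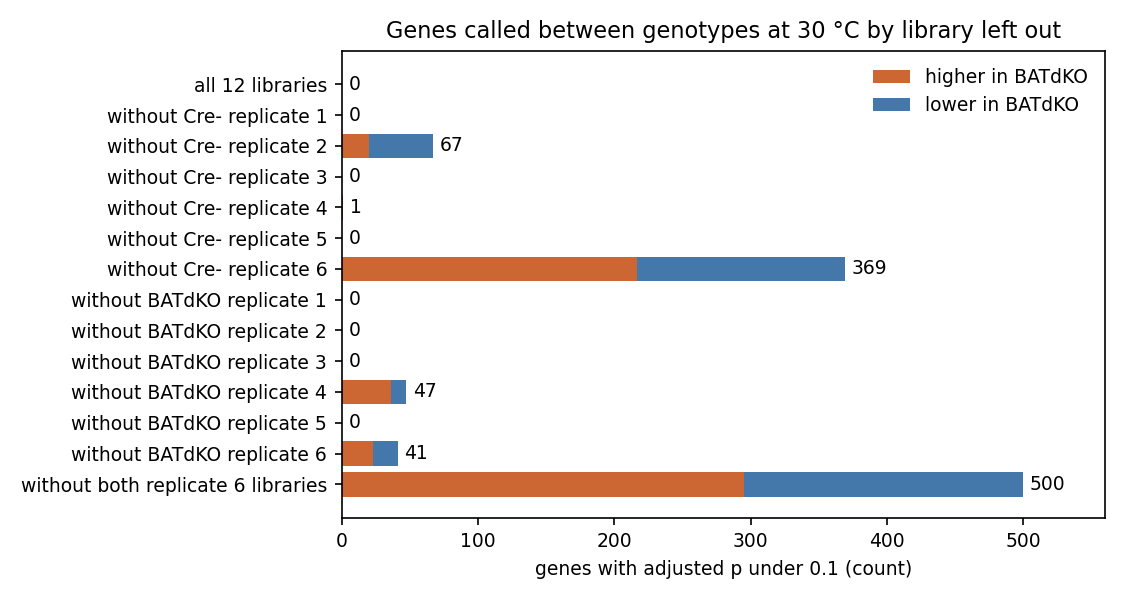
Bars give the number of genes with an adjusted p under 0.1 between the genotypes at 30°C (horizontal axis, count), higher in BATdKO in orange and lower in blue, for the fit with all 12 libraries, with each library left out, and without both replicate 6 libraries. The count was 0 with all libraries, 369 without Cre- replicate 6 and 500 without both replicate 6 libraries.

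The genes with the smallest p among those higher in BATdKO were Nabp1, St3gal6, Dusp4, Jun, Prkce, Cidec, Zfp703 and Acsl1. Nabp1, a single-stranded DNA binding protein, was at 9.92, 8.67, 3.38, 10.9 and 6.9 CPM in Cre- replicates 1 to 5 and at 190, 61.6, 90.2, 62.1 and 61.7 CPM in BATdKO replicates 1 to 5, with Cre- replicate 6 at 75.2 CPM and BATdKO replicate 6 at 8.71 CPM. That was a log2 fold change of 3.61 ± 0.34 (SE, adjusted p = 5.71e-07), or 12.2-fold. With all 12 libraries it was 1.94 ± 0.55 (SE, adjusted p = 0.181). Nabp1 was among the genes crossed in the libraries set aside, so that the smaller p is partly fixed by leaving them out. The sialyltransferase gene St3gal6 went from 4 to 9.92 CPM to 27.6 to 58.7 CPM (log2 fold change 2.58 ± 0.25 SE, adjusted p = 7.08e-07, 1.38 with all 12). Both genes kept the groups apart without overlap once replicate 6 was left out, and overlapped with it.

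Dusp4, a phosphatase of MAP kinases, was at 2.44, 2.72, 0.811, 1.37 and 1.1 CPM in Cre- and 9.59, 13.9, 10, 10.1 and 7.28 CPM in BATdKO replicates 1 to 5, with the replicate 6 libraries at 13.3 CPM in Cre- and 1.95 CPM in BATdKO (log2 fold change 2.46 ± 0.28 SE, adjusted p = 7.04e-06, 1.12 with all 12). Jun, a subunit of the AP-1 transcription factor, rose from 17.8 to 24.7 to 34.8 to 60.8 CPM (1.11 ± 0.13 SE, adjusted p = 7.04e-06, 0.74 with all 12). Prkce, protein kinase C epsilon, rose from 19.3 to 31.4 to 40 to 62.1 CPM (1.09 ± 0.13 SE, adjusted p = 7.04e-06, 0.53 with all 12), and the zinc finger gene Zfp703 from 16.4 to 31.7 to 48.3 to 66.4 CPM (1.28 ± 0.16 SE, adjusted p = 1.59e-05, 0.73 with all 12). In each of the 4 the replicate 6 library of either genotype lay in the range of the other or just outside it. With all 12 libraries the adjusted p was 0.36 for Dusp4 and 0.149 for Jun.

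Among genes lower in BATdKO, the smallest p belonged to Macrod1, Mmp23, Ptgds, Gmpr, Sh3bp5, Fbp2, Peg13 and Pink1. Macrod1, a mitochondrial hydrolase of ADP-ribose marks, was at 46.8, 45.7, 47.7, 43.7 and 50.4 CPM in Cre- and 25.3, 29.1, 26.9, 30 and 28.8 CPM in BATdKO replicates 1 to 5, with 29.8 CPM in Cre- replicate 6 and 48.8 CPM in BATdKO replicate 6. Its log2 fold change was -0.75 ± 0.08 (SE, adjusted p = 7.04e-06) without both replicate 6 libraries and -0.48 ± 0.13 (SE, adjusted p = 0.163) with all 12. Ptgds, a prostaglandin D synthase, was at 16.2, 18.6, 3.78, 10.9 and 16.7 CPM in Cre- and 2.96, 3.73, 2.14, 1.7 and 3.22 CPM in BATdKO, with replicate 6 at 2.88 and 13.5 CPM in the same order (log2 fold change -2.32 ± 0.34 SE, adjusted p = 0.00028, -1.38 with all 12). Of replicates 1 to 5 of Cre-, only replicate 3 came near the BATdKO range. The metalloprotease gene Mmp23 was read at few counts, at 0.425 to 1.28 CPM against 2.73 to 5.38 CPM in Cre- (-2.37 ± 0.28 SE, adjusted p = 8.2e-06, -1.05 with all 12).

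Gmpr, GMP reductase, fell from 16.4 to 30.5 to 5.05 to 8.98 CPM (-1.74 ± 0.26 SE, adjusted p = 0.000307, -1.15 with all 12) and Fbp2, the muscle form of fructose bisphosphatase, from 2.73 to 7 to 0.393 to 1.71 CPM (-2.29 ± 0.39 SE, adjusted p = 0.00134, -1.74 with all 12). Sh3bp5 had a log2 fold change of -0.52, the imprinted transcript Peg13 of -0.89 and Pink1, a kinase that marks damaged mitochondria, of -0.51 (in the same order -0.38, -0.50 and -0.40 with all 12). Pink1 in BATdKO replicate 6 was at 69.2 CPM, against 68.3 to 107 CPM in Cre- and 55.4 to 67.2 CPM in BATdKO replicates 1 to 5.

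**Figure D3:**
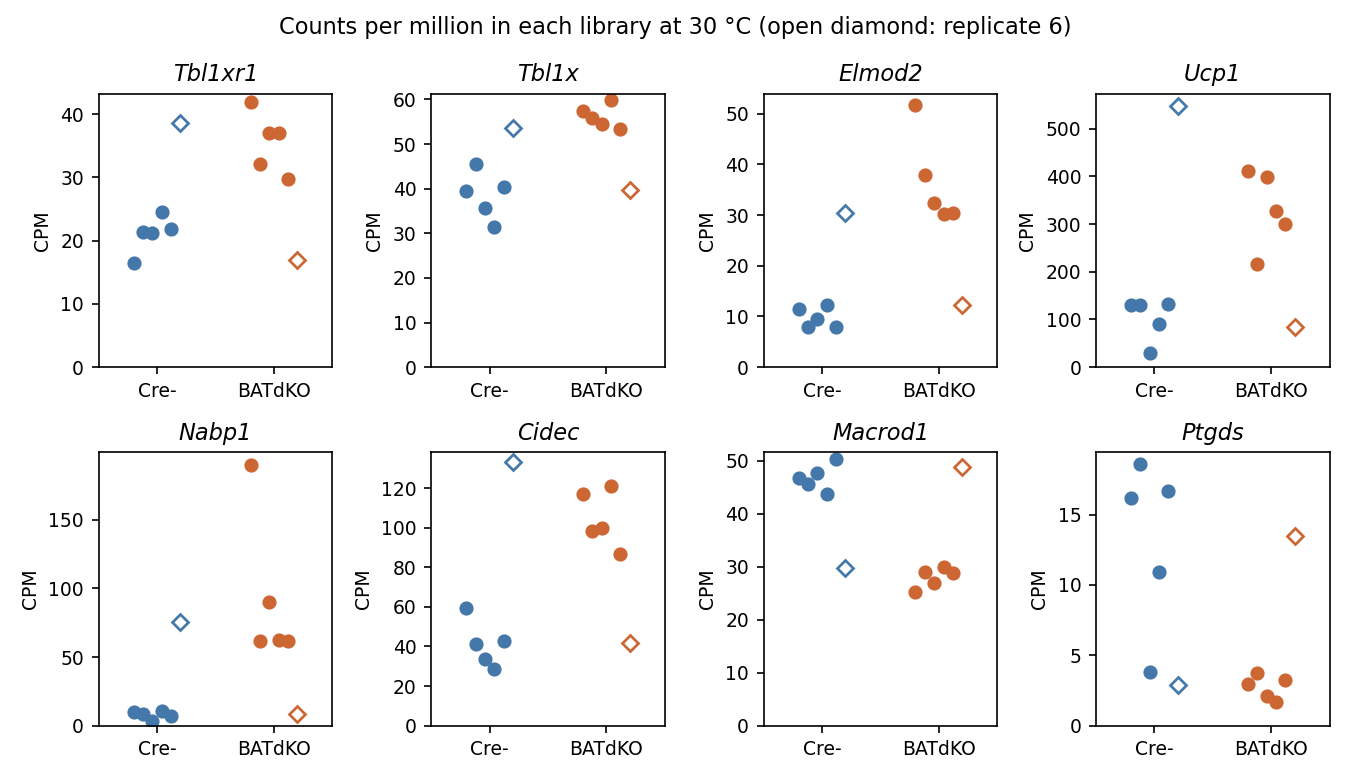
CPM (vertical axis, from 0) of 8 genes in each library at 30°C by labelled genotype (horizontal axis), with replicate 6 as an open diamond. In all 8 panels replicates 1 to 5 of the genotypes do not overlap, and both diamonds lie on the side of the other genotype.

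Elmod2 lies next to Ucp1, the gene whose promoter drives the recombinase. Elmod2 (chr8:83312632-83332486, minus strand), a GTPase-activating protein for ARF-type GTPases, lies 14.2 kb beyond the end of Ucp1 (chr8:83290352-83298452, plus strand) in GRCm38. It was at 11.4, 7.84, 9.6, 12.3 and 7.87 CPM in Cre- replicates 1 to 5 and at 51.8, 37.9, 32.3, 30.2 and 30.5 CPM in BATdKO replicates 1 to 5. The libraries labelled Cre- replicate 6 and BATdKO replicate 6 held 30.4 and 12.2 CPM. The log2 fold change was 1.95 ± 0.28 (SE, adjusted p = 0.000158) without both and 1.26 ± 0.34 (SE, adjusted p = 0.153) with all 12 libraries (exact permutation p = 0.013, adjusted 0.052). In the mice at 8°C it was at 7.29 to 13.8 CPM in Cre- and 28.4 to 99.8 CPM in BATdKO, with no overlap, so that at 30°C each replicate 6 value fell in the range that the other genotype showed at 8°C. Which part of the locus the transgene carries is not given in the sources used here.

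Ucp1, the uncoupling protein of brown fat, was at 130, 130, 28.9, 91.6 and 133 CPM in Cre- replicates 1 to 5 and 412, 217, 398, 327 and 300 CPM in BATdKO replicates 1 to 5, with 548 CPM in Cre- replicate 6 and 84.7 CPM in BATdKO replicate 6. Without both the log2 fold change was 1.67 ± 0.27 (SE, adjusted p = 0.000718), or 3.19-fold, and with all 12 it was 0.69 ± 0.41 (SE, adjusted p = 0.592) (exact permutation p = 0.123, adjusted 0.123). Of the 22 tested genes that start within 1000 kb of Ucp1, 4 were called at 30°C without both replicate 6 libraries (Ucp1 itself, Elmod2, Rnf150 and Prkaca), beside 4.00% of all tested genes, and none with all 12. Rnf150 fell (-0.77 ± 0.20 SE, adjusted p = 0.0319, -0.32 with all 12), and Prkaca, the catalytic subunit of protein kinase A, rose (0.33 ± 0.10 SE, adjusted p = 0.0715, 0.09 with all 12). At 8°C Elmod2, Rnf150 and Prkaca were called in the same directions, and Ucp1 was not. Among the other 18 genes of the window none was called.

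Promoter windows of 5 of these genes are given, each as the 250 bases before the annotated start in RefSeq on GRCm38.p6, 5′ to 3′ on the gene's strand, to show the sequence upstream of the driver gene and of genes that separated the groups. Capitals mark any match on either strand to AGGTCA (a nuclear receptor half-site), TGACGTCA (a cAMP response element) or TGANTCA (an AP-1 site). Ucp1 lies at chr8:83290098-83290347, plus strand, Nabp1 at chr1:51478400-51478649, minus strand, Cidec (the second of its 2 annotated starts) at chr6:113434765-113435014, minus strand, Gmpr at chr13:45507194-45507443, plus strand and Ptgds at chr2:25469750-25469999, minus strand.
Ucp1: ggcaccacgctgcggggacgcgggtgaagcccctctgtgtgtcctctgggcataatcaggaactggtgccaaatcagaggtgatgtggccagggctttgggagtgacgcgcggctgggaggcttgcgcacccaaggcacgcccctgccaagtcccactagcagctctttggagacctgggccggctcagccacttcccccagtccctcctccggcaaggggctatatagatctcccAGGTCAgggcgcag
Nabp1: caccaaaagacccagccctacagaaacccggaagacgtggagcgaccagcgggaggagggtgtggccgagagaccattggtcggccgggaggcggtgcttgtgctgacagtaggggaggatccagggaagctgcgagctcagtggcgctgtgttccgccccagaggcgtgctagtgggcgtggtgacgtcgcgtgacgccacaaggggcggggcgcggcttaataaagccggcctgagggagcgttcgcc
Cidec: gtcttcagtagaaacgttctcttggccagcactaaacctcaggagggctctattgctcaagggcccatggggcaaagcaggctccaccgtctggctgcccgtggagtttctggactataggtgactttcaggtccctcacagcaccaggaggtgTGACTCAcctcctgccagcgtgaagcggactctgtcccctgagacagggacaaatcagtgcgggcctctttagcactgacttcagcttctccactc
Gmpr: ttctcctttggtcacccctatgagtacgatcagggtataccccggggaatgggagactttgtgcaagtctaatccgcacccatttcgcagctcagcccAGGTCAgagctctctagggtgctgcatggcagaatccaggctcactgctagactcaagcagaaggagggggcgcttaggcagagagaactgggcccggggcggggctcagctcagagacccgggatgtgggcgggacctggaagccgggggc
Ptgds: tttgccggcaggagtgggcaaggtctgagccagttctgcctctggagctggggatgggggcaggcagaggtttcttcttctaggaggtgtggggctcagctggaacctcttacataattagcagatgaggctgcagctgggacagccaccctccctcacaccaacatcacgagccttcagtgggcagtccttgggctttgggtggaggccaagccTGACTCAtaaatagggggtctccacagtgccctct
The Ucp1 and Gmpr windows each hold 1 half-site, those of Cidec and Ptgds each hold 1 AP-1 letter pattern, and the Nabp1 window holds none of the 3 patterns. Windows of other genes were searched as well. That of Fbp2 holds 1 AP-1 pattern. The windows of Elmod2, St3gal6, Jun, Macrod1, Mmp23, Tbl1xr1 and Acsl1 and that of the first Cidec start hold none. Matches are thus more frequent among the printed windows than among those searched. Over the 32851 RefSeq windows of this length, 14% hold AGGTCA, 1.55% TGACGTCA and 6.75% TGANTCA. By gene, AGGTCA was found in 13.7% of the 212 matched genes higher in BATdKO, in 12.9% of the 139 matched genes lower and in 13.6% of the 8669 matched genes tested. TGANTCA was in 4.25%, 7.19% and 5.53%, and TGACGTCA in 2.36%, 0.719% and 2.98%. A match is a description of letters and not a binding site.

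Genes of brown fat identity were higher in part. Of 19 tested members of that list, 5 were higher without both replicate 6 libraries (Ucp1, Cox8b, Cidea, Dio2 and Ppargc1a), 1 was lower (Bmp8b), and the median log2 fold change was 0.22, against -0.01 over all tested genes. The counts of this and the following lists stand beside 2.36% higher and 1.64% lower over all genes. Cidea, a lipid droplet protein of brown adipocytes, was at 457, 337, 144, 212 and 385 CPM in Cre- and 500, 600, 794, 742 and 674 CPM in BATdKO replicates 1 to 5, and at 882 and 411 CPM in their replicate 6 libraries (1.09 ± 0.21 SE, adjusted p = 0.00394, 0.61 with all 12). Cox8b, a subunit of cytochrome c oxidase typical of brown fat, rose from 53.4 to 145 to 162 to 246 CPM (1.19 ± 0.21 SE, adjusted p = 0.00203, 0.58 with all 12). Dio2, the deiodinase that activates thyroid hormone, was barely detected, at 0 to 0.944 CPM in Cre- and 1.19 to 2.63 CPM in BATdKO (2.00 ± 0.53 SE, adjusted p = 0.0369, 1.09 with all 12). Ppargc1a, a coactivator of mitochondrial genes, had a log2 fold change of 0.58 ± 0.16 (SE, adjusted p = 0.0507, 0.39 with all 12), and Bmp8b one of -2.10 ± 0.62 (SE, adjusted p = 0.0672, -1.46 with all 12) at 2.09 CPM at most.

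Other members did not pass. Prdm16, which specifies brown adipocytes, had a log2 fold change of 0.83 (adjusted p = 0.264) and Adrb3, the beta-3 adrenoceptor, of 0.01 (adjusted p = 1). With all 12 libraries the list had 4 members higher and 1 lower at an unadjusted p under 0.05, and a median of 0.11. Ucp3, a relative of Ucp1 that was chosen after its values were seen, went from 1.37 to 5.43 CPM to 8.15 to 17.3 CPM (1.85 ± 0.31 SE, adjusted p = 0.00134, 0.83 with all 12).

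In the short list of brown adipocyte markers 5 of 6 members (Ucp1, Cidea, Cox8b, Fabp4 and Plin1) were called higher while Adipoq was not (-0.10, adjusted p = 0.887). Ucp1, Cidea and Cox8b are also on the identity list, Fabp4 on that of lipid uptake and Plin1 on that of the lipid droplet. The lists are therefore not independent. The summed share of counts of the 6 markers was 0.0622% to 0.247% in Cre- and 0.229% to 0.422% in BATdKO replicates 1 to 5. It was 0.43% in Cre- replicate 6 and 0.122% in BATdKO replicate 6. In bulk tissue more brown adipocytes and more of these transcripts per cell cannot be told apart. This holds for the lipid genes below as well.

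Genes of lipid storage were called in 1 direction. Of 11 tested genes of triglyceride synthesis 6 were higher and none lower (median log2 fold change 0.42), and of 16 lipid droplet genes 7 were higher and none lower (median 0.37), beside 2.36% of all genes higher and a median of -0.01. Acsl1, which activates long-chain fatty acids, was at 434, 492, 469, 493 and 498 CPM in Cre- and 998, 738, 858, 763 and 713 CPM in BATdKO replicates 1 to 5, and at 816 and 543 CPM in their replicate 6 libraries (0.77 ± 0.10 SE, adjusted p = 3.54e-05, 0.52 with all 12). Agpat2, an acyltransferase of the pathway, had a log2 fold change of 1.02 ± 0.20 (SE, adjusted p = 0.00563, 0.43 with all 12), but its exons overlap Egfl7 on the other strand, and whether counting used strand is not given in the sources used here. Gpd1, which makes glycerol 3-phosphate, rose from 232 to 471 to 603 to 754 CPM (0.85 ± 0.16 SE, adjusted p = 0.00264, 0.45 with all 12), and Pck1, which feeds glycerol synthesis, by 0.93 ± 0.20 (SE, adjusted p = 0.0123, 0.51 with all 12). Agpat3 and Dgat2, the last enzyme of triglyceride synthesis, rose less, by 0.42 and 0.35 on the log2 scale (0.28 and 0.13 with all 12). In the fit of all 12 libraries 4 of the 11 genes had an unadjusted p under 0.05, all higher, and the median was 0.23.

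At the droplet, Cidec, which fuses droplets, was at 59.4, 41.3, 33.7, 28.7 and 42.6 CPM in Cre- and 117, 98.2, 100, 121 and 86.7 CPM in BATdKO replicates 1 to 5. Its replicate 6 libraries held 133 CPM in Cre- and 41.8 CPM in BATdKO. The log2 fold change was 1.29 ± 0.15 (SE, adjusted p = 7.7e-06) without both and 0.68 ± 0.26 (SE, adjusted p = 0.351) with all 12. The other called members were Cidea (above), the lipase Mgll (0.31, 0.23 with all 12), the lipase coactivator Abhd5 (0.66, 0.41 with all 12), its inhibitor G0s2 (1.17, 0.49 with all 12) and the coat proteins Plin1 (0.72, 0.31 with all 12) and Plin2 (0.35, 0.27 with all 12). The coactivator Abhd5 and the inhibitor G0s2 were thus both among the genes called higher, but G0s2 less securely. Its adjusted p was 0.0573 and its groups overlapped. Its call held in 3 of 7 alternatives to the fit without both replicate 6 libraries, that of Abhd5 in 7 of 7. With 1 further library left out they held in 5 and 8 of 10 fits. Plin1 and Plin2 were near the threshold as well (adjusted p = 0.0644 and 0.0573), with overlapping groups. Each held in 5 of 7 alternatives and in 5 of 10 fits with 1 further library left out. Over all 12 libraries 6 of 16 had an unadjusted p under 0.05, all higher, and the median was 0.25.

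Of 14 genes of lipid uptake 4 were higher (Lpl, Cd36, Fabp4 and Fabp5) and none lower, with a median of 0.12, beside 2.36% of all genes higher. With all 12 libraries the median turned to -0.02, with 6 of 14 values above 0 and 3 genes higher at an unadjusted p under 0.05. Cd36, a fatty acid transporter, was at 65.1 to 137 CPM in Cre- and 143 to 264 CPM in BATdKO replicates 1 to 5 (0.77 ± 0.18 SE, adjusted p = 0.0188, 0.63 with all 12). Fabp4, an abundant fatty acid carrier of adipocytes, ranged widely within each genotype, from 125 to 840 CPM and from 677 to 2510 CPM, and the groups overlapped (1.87 ± 0.38 SE, adjusted p = 0.00695, 0.98 with all 12). Lpl, lipoprotein lipase, had a log2 fold change of 0.91 ± 0.21 (SE, adjusted p = 0.0151, 0.50 with all 12), and Fabp5 one of 0.63 ± 0.13 (SE, adjusted p = 0.0062, 0.41 with all 12). Angptl4, which inhibits lipoprotein lipase, was not called (0.37, adjusted p = 0.341).

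De novo lipogenesis genes were mostly not called. Of 21 tested 2 were higher, the stearoyl-CoA desaturases Scd1 and Scd2, and the median was 0.10 (0.08 with all 12). Scd1 was at 6530, 7450, 5600, 9410 and 6770 CPM in Cre- and 14200, 10000, 11300, 9480 and 10300 CPM in BATdKO replicates 1 to 5, and at 10400 and 9140 CPM in their replicate 6 libraries (0.63 ± 0.13 SE, adjusted p = 0.00672, 0.48 with all 12). Its paralogs can share reads with it, and Scd2 (1.49, 0.87 with all 12) and, looked up after the values were seen, Scd3 (0.76, 0.78 with all 12) and Scd4 (1.45, 1.42 with all 12) moved the same way. Fasn, fatty acid synthase, had a log2 fold change of 0.10 (adjusted p = 0.852) and Acaca, acetyl-CoA carboxylase, of -0.39 (adjusted p = 0.392), with overlapping groups.

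Fatty acid oxidation and fuel choice gave mixed calls. Of 21 oxidation genes 3 were higher (Pdk4, Etfdh and Decr1) and 1 was lower (Acaa2), with a median of 0.26 (0.12 with all 12). Pdk4, a kinase that inhibits pyruvate dehydrogenase, was at 9.21, 10.4, 3.11, 12.3 and 6.9 CPM in Cre- and 38.9, 21.6, 35.9, 28.4 and 13.6 CPM in BATdKO replicates 1 to 5, with 27.2 and 30.2 CPM in their replicate 6 libraries. BATdKO replicate 6 was thus inside its own genotype's range here (1.81 ± 0.37 SE, adjusted p = 0.00711, 1.27 with all 12). Pdk4 was not alone in this among called genes. BATdKO replicate 6 held 179.5 CPM of Cd36, 151 of Npc2, 683 of Plin2 and 43.7 of Hlf. BATdKO replicates 1 to 5 held 143 to 264, 139 to 202, 581 to 822 and 40.2 to 48.8 CPM in the same order. Etfdh, which passes electrons from fatty acid oxidation to ubiquinone, rose by 0.52 ± 0.13 (SE, adjusted p = 0.0255, 0.39 with all 12), Decr1 by 0.28 (0.20 with all 12), and Acaa2, the last thiolase of the spiral, was at -0.28 (-0.15 with all 12).

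Of 21 genes of glucose use, Slc16a1, a lactate and pyruvate carrier, was higher (0.56, 0.47 with all 12) and Pfkm, the muscle phosphofructokinase, lower (-1.53, -1.39 with all 12). The call of Slc16a1 held in 4 of 7 alternatives and in 3 of 10 fits that left out 1 further library. Pfkm was highest in the Cre- libraries rich in muscle RNA, at 36.8 and 47.6 CPM against at most 9.57 CPM elsewhere. Hk2, hexokinase of insulin-sensitive tissue, was not called (-0.22, adjusted p = 0.712). Of 19 nuclear genes of the respiratory chain only Uqcrc1, a subunit of complex III, was called (0.38, higher, 0.34 with all 12). That call held in 5 of 7 alternatives and in 5 of 10 fits with 1 further library left out. None of the 13 protein genes of mitochondrial DNA was called by edgeR without both replicate 6 libraries, though 3 had an unadjusted p under 0.05 and DESeq2 called 1. Of the most abundant, mt-Nd4 had a log2 fold change of 0.11 (adjusted p = 0.708) and mt-Nd2 of 0.34 (adjusted p = 0.169).

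**Figure D4:**
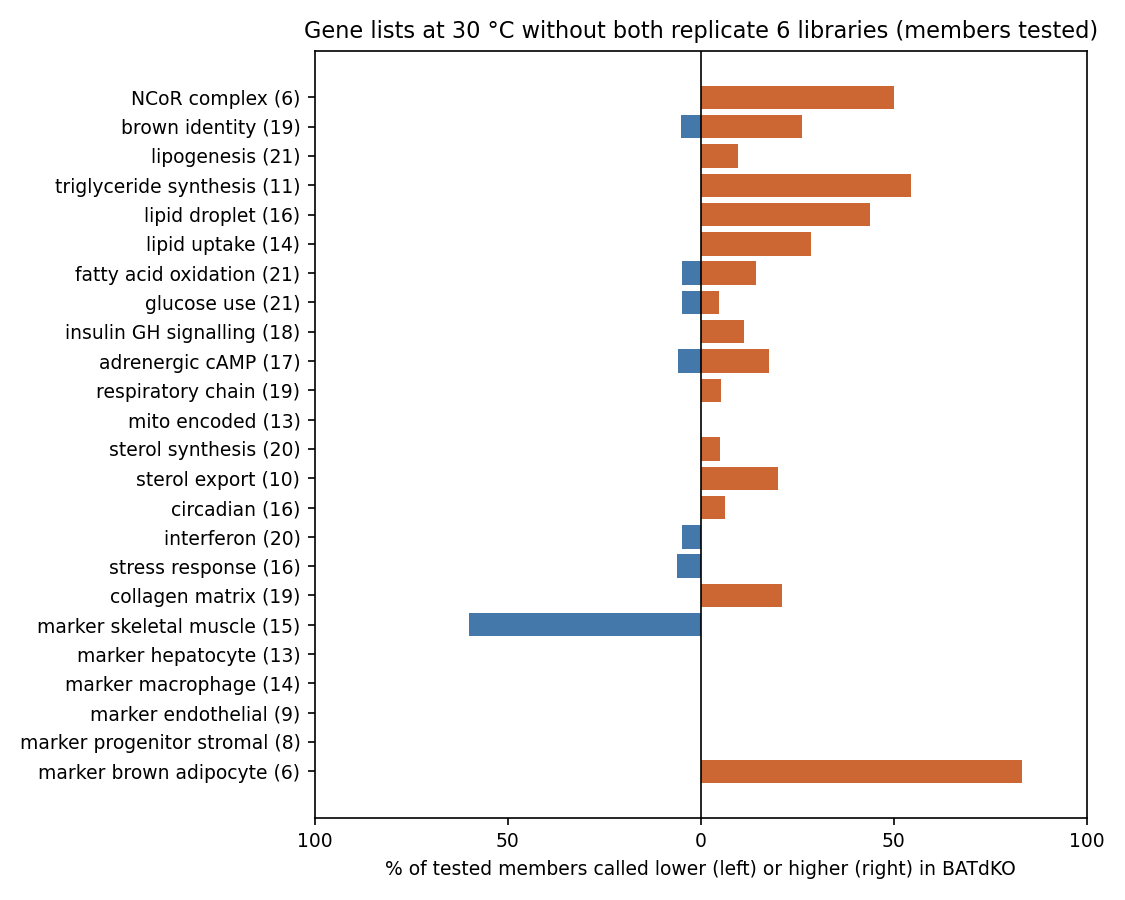
Horizontal bars give the percentage of tested members of each gene list called higher (orange, right) or lower (blue, left) in BATdKO at 30°C without both replicate 6 libraries, with the number tested in brackets. Members called higher were 6 of 11 for triglyceride synthesis, 7 of 16 for the lipid droplet, 3 of 6 for the NCoR complex and 5 of 6 for brown adipocyte markers, and 9 of 15 skeletal muscle markers were called lower, against 2.36% higher and 1.64% lower over all genes.

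Of 17 adrenergic and cAMP genes 3 were higher and 1 lower, beside 2.36% and 1.64% of all genes, and 1 was higher and none lower without Cre- replicates 1 and 3 as well, where Adra1a, Prkaca and Pde4b were no longer called. The 3 were Gngt2, a G protein gamma subunit, at 10.9 to 16.8 CPM in Cre- and 23.9 to 32.5 CPM in BATdKO replicates 1 to 5 (0.71 ± 0.13 SE, adjusted p = 0.00216, 0.40 with all 12), Adra1a, the alpha-1A adrenoceptor (0.81 ± 0.19 SE, adjusted p = 0.0216, 0.48 with all 12), and Prkaca (above). Exons of Gngt2 overlap those of Abi3 on the other strand. The phosphodiesterase gene Pde4b was lower (-0.36 ± 0.11 SE, adjusted p = 0.0808, -0.39 with all 12). In the insulin and growth hormone list of 18, Socs2, a feedback inhibitor of growth hormone signalling (0.66 ± 0.14 SE, adjusted p = 0.012, 0.32 with all 12), and Akt1 (0.77, 0.27 with all 12) were higher, and Irs2, an insulin receptor substrate, was not called (0.31, adjusted p = 0.269).

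Of 19 matrix genes 4 were higher while the list's median was -0.21 (-0.14 with all 12). Those were the basement membrane genes Col4a1, Col4a2 and Lamb1 and the large adhesion protein Svep1. Col4a1 was at 75.7, 53.3, 44.1, 51.9 and 55.5 CPM in Cre- and 109, 111, 108, 88.1 and 77.1 CPM in BATdKO replicates 1 to 5, and at 97.4 and 65.8 CPM in their replicate 6 libraries (0.80 ± 0.14 SE, adjusted p = 0.00134, 0.54 with all 12). Col4a2, which overlaps it head to head on the other strand, rose by 0.83 ± 0.13 (SE, adjusted p = 0.000512, 0.58 with all 12). Lamb1 rose by 0.58 and Svep1 by 1.10 (0.38 and 0.64 with all 12). None of 9 endothelial markers (1 at an unadjusted p under 0.05, 0 by DESeq2) and none of 8 stromal progenitor markers (2 at an unadjusted p under 0.05, 1 by DESeq2) was called by edgeR.

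Sterol genes were called in few cases. Of 10 export genes Abca1, the cholesterol exporter (0.50 ± 0.08 SE, adjusted p = 0.00134), and Npc2, which carries cholesterol out of lysosomes (0.52 ± 0.12 SE, adjusted p = 0.0183, 0.43 with all 12), were higher, and of 20 synthesis genes Insig1 was (0.46, 0.31 with all 12). Abca1 was at 28.7 to 35.4 CPM in Cre- and 39.9 to 49.9 CPM in BATdKO replicates 1 to 5, and its value with all 12 libraries was 0.37 ± 0.09 (SE, adjusted p = 0.149). Single members of further lists passed: Hlf of the clock genes (0.38, 0.24 with all 12), Igtp of the interferon genes (-0.53, -0.47 with all 12), Chac1 of the stress response (-1.20, -0.96 with all 12), the adipocyte corepressor gene Nrip1 (0.35, 0.24 with all 12), the transcription factor gene Mef2a (0.41, 0.28 with all 12), S100b of the neural markers (-0.94, -0.34 with all 12) and Alpl, a phosphatase of the creatine cycle list (1.04, 0.60 with all 12). Hlf, Igtp, Nrip1 and Mef2a were near the threshold (adjusted p = 0.0828, 0.0947, 0.0832 and 0.0859). Hlf and Nrip1 each passed in 2 of 10 fits that left out 1 further library. DESeq2 without both replicate 6 libraries did not call Igtp or Chac1. No member was called by edgeR or DESeq2 among 11 tested Nrf2 targets (2 at an unadjusted p under 0.05) or among 14 macrophage markers, 4 haemoglobin genes and 5 sex-linked genes (0 at an unadjusted p under 0.05). Macrophage markers held 0.0347% to 0.0557% of counts and endothelial markers 0.0202% to 0.0279% over the 12 libraries. Nor was any gene called by edgeR among 4 cell division genes (1 at an unadjusted p under 0.05, 0 by DESeq2), 2 white adipocyte markers (0 and 0), the 1 tested B cell marker (0 and 0), the 1 tested T cell marker (1 and 0) and the 1 tested mesothelial marker (1 and 1).

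Skeletal muscle markers had the most members called lower of the lists examined, and they followed 2 libraries. All 15 tested markers had a negative log2 fold change without both replicate 6 libraries (median -3.28) and 9 were called lower, while the fit with all 12 had a median of -3.18 with 13 at an unadjusted p under 0.05. Ckm, muscle creatine kinase, was at 167 CPM in Cre- replicate 1 and 349 CPM in Cre- replicate 3. The other 4 Cre- libraries held 3.24, 0, 12.6 and 0.103 CPM, and BATdKO held 6.97, 21.4, 0.214, 5.86 and 11.2 CPM in replicates 1 to 5 and 4.21 CPM in replicate 6. The myosin genes Myh7 (-4.14 ± 1.05 SE, adjusted p = 0.0308, -4.06 with all 12) and, chosen after seeing values, Myl2 (-4.94 ± 1.09 SE, adjusted p = 0.0123, -4.85 with all 12) had the same pattern, with 0 CPM in Cre- replicate 4 for both. Mef2c (-1.28, -1.13 with all 12) and Ryr1 (-2.94, -2.83 with all 12), muscle genes on other lists, were highest in the same Cre- libraries. Without these 2 libraries as well, none of the 15 was called and their median was 0.47, while Ckm was at 0.47 ± 0.94 (SE). In that fit 212 genes were called, 149 higher and 63 lower, of which 174 were among the 500. Ucp1 (1.43), Cidea (1.05), Cidec (1.39), Acsl1 (0.71), Elmod2 (2.15), Tbl1xr1 (0.69) and Macrod1 (-0.75) remained called on the log2 scale, as did Fbp2 (-1.71), 4 genes of triglyceride synthesis and 5 of the lipid droplet. That fit has fewer libraries, and 28 of the named genes were no longer called in it, among them Dio2, Ppargc1a, G0s2, Plin2, Dgat2, Agpat3, Akt1, Etfdh, Decr1, Insig1, Scd3 and Scd4. Members called higher went from 5 to 3 for brown identity and from 3 to 1 for oxidation.

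The genes called at 30°C were then read in the mice kept at 8°C, which are other animals. The measure that set the replicate 6 libraries apart was itself built from genes called at 8°C, so that part of the likeness is fixed by leaving those libraries out. Of the 500 genes 370 (74%) had the same sign of the genotype effect at 8°C, against 49.7% of all tested genes, and 94 (18.8%) were also called at 8°C, where 2.59% of all genes were. Of those 94, 92 had the same direction. Higher genes kept their sign in 209 of 295 cases (70.8%) and lower genes in 161 of 205 (78.5%). At 8°C muscle markers held 0.00356% to 0.319% of counts in Cre- and 0.00419% to 0.0298% in BATdKO. Without the muscle-rich libraries 152 of 212 (71.7%) kept their sign. With all 12 libraries, the 1303 genes at an unadjusted p under 0.05 had the same sign in 60.3% of cases against 50.7% of all tested genes.

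**Figure D5:**
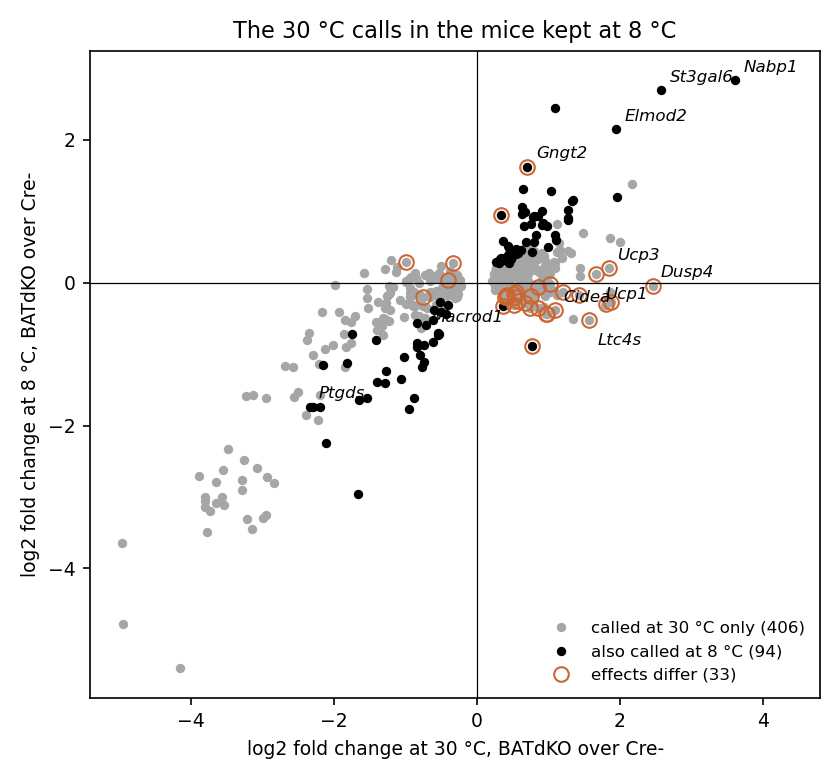
Each point is 1 of the 500 genes called at 30°C without both replicate 6 libraries, with its log2 fold change of BATdKO over Cre- at 30°C (horizontal axis) and at 8°C (vertical axis). Black points (94) were also called at 8°C, and orange rings (33) mark genes whose effects differed between temperatures. St3gal6, Nabp1 and Elmod2 lie far out in the upper right, and Dusp4, Ucp1 and Ucp3 lie to the right near 0 at 8°C.

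Nabp1, St3gal6 and Elmod2 were called higher at both temperatures, with log2 fold changes at 8°C of 2.83, 2.70 and 2.15, and the difference between temperatures did not pass for any of them (adjusted p = 0.534, 0.951 and 0.899). Tbl1xr1 (0.92), Tbl1x (0.39), Cidec (1.01), Jun (0.60), Prkce (0.66) and Acsl1 (0.43) were also called higher there, and Ptgds (-1.74) and Fbp2 (-1.74) lower. A test of the difference between the temperatures called 12 genes with all 24 libraries (0.0961% of 12485) and 44 without both replicate 6 libraries (0.352% of 12500), the 12 among them.

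Of the 44 genes 33 were called at 30°C. Dusp4 had the smallest p, with an effect at 30°C that exceeded that at 8°C by 2.50 ± 0.36 (SE, adjusted p = 0.00276) on the log2 scale, and 2.46 at 30°C against -0.04 at 8°C. Ucp1 (1.55 ± 0.35 SE, adjusted p = 0.0651), Ucp3 (1.65 ± 0.39 SE, adjusted p = 0.0787), Cidea (1.48 ± 0.28 SE, adjusted p = 0.0211), Gpd1 (0.91 ± 0.21 SE, adjusted p = 0.0678) and Pdk4 (2.12 ± 0.48 SE, adjusted p = 0.0602) were in the same class, higher in BATdKO at 30°C and not called at 8°C. Ucp1 averaged 1539 CPM in Cre- and 1685 CPM in BATdKO at 8°C, above every value at 30°C. Ltc4s, leukotriene C4 synthase (2.09 ± 0.34 SE, adjusted p = 0.00713), and Mt2, a metallothionein (1.44 ± 0.25 SE, adjusted p = 0.00848), were similar. None of these 8 differences passed with all 24 libraries, where they were 0.50 to 1.56.

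The test with all 24 libraries was led by 4 genes in either direction (ranked by p), with differences of -1.32 to 1.68. Their effects are given here from the fit without both replicate 6 libraries, in which 6 of these 8 were called at 8°C and not at 30°C. Cbr1 had a log2 fold change of -0.002 at 30°C and 0.81 at 8°C, Ivns1abp of 0.19 and 0.81, and the immunoglobulin gene Ighm of 0.25 and 1.45. Gngt2 was called at both, at 0.71 and 1.62, and was at 0.40 at 30°C with all libraries. Those 3 and Gngt2 had the higher value at 8°C. In the other direction Irak3 (0.29 and -1.10), Myo5a (0.83 and -1.02), Gm47595 (-0.01 and -1.72) and Gm5898 (0.43 and -0.20) had the lower values at 8°C, and Gm5898 was called at 30°C alone. Dgat2, called at both temperatures, had the larger effect at 8°C (-0.60 ± 0.12 SE, adjusted p = 0.0403 for 30°C minus 8°C), and Macrod1 the larger fall at 30°C (-0.55 ± 0.12 SE, adjusted p = 0.0426). With all 24 libraries these were -0.81, which passed, and -0.28, which did not.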

How the data were processed

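Brown fat RNA of 24 mice (6 per genotype and temperature) was read as 3′ tags with the QuantSeq FWD HT kit. Per the study's methods, the authors trimmed reads with BBDuk, aligned them with STAR to GRCm38 and counted them per gene with Rsubread. The annotation release and the strand setting are not given in the sources used here. Of 157 genes looked up by name, 44 share exons with a gene on the other strand, among them Gngt2 (with Abi3) and Bmp8b (with Ppie). A further limit is that 13 share exons with a gene on the same strand. The methods mention that outliers were removed without naming them. The deposited values are raw counts of 12615 genes, used as deposited. Depth was 699703 to 11527643 counts at 30°C, so that genes of few counts are least precise in Cre- replicate 4.

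Of the 12615 identifiers 12608 were matched to symbols, and coordinates are those of GENCODE on GRCm38. Low genes were removed with filterByExpr, and counts were scaled by TMM and tested with edgeR 4.0.16 (quasi-likelihood F test, R 4.3.3) in 1 model of 4 groups over all 24 libraries, with Benjamini-Hochberg adjustment over all tested genes and a threshold of 0.1. Standard errors are the size of the log2 fold change over the root of F. Permutation tests used log2 CPM with a prior count of 2. No pair of libraries within a group agreed within sampling noise (chi-square per degree of freedom of at least 2.61). The scripts were tested on simulated data. P-values set a difference against the spread between the mice of a fit. Without both replicate 6 libraries, that spread leaves out mice that were set aside for their profiles.

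The members and gene lists were chosen with earlier results of these data known. Of 465 listed genes 407 were in the table. Genes named were the NCoR complex genes, the 12 with the smallest p in each direction past the threshold with all libraries (0 passed), the 8 in each direction without both replicate 6 libraries, up to 4 called members of each list or else its 2 most abundant, 10 genes fixed by name, and the 4 in each direction of the test between temperatures. Some of these are given only within a list's counts, and 1 is not reported here. Other genes were named after their values were seen. They are further called members of a list, the genes near Ucp1, Ucp3, Scd3, Scd4, Myl2, and genes of the test between temperatures. Alternatives were DESeq2 1.42.0, RLE size factors, other filters, robust dispersion, a threshold of 0.05, the 30°C libraries alone and leaving out libraries. Those run on top of leaving out both replicate 6 libraries were chosen after seeing the data, except the fit of the other 10 libraries alone.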

Additional observations from a re-analysis of the deposited data

Results flagged for a closer look

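In 17 of 58 groups of 6 libraries examined, 1 library stood apart by more than Dixon's critical value of 0.625, a gap-to-range ratio that chance exceeds in about 5% of groups. In 16 of the 17 it was a replicate 6 library, but most of the genes listed were named for a small p once both replicate 6 libraries were left out, so that this is partly fixed by how they were chosen and cannot be read against that rate. In Cre- replicate 6 the ratio was 0.67 for Elmod2, 0.63 for Nabp1, 0.626 for St3gal6, 0.662 for Jun, 0.784 for Acsl1 and 0.732 for Macrod1. In BATdKO replicate 6 it was 0.72 for Tbl1x, 0.627 for Elmod2, 0.632 for Nabp1, 0.676 for St3gal6, 0.659 for Dusp4, 0.685 for Cidec, 0.741 for Macrod1, 0.64 for Mmp23, 0.636 for Ptgds and 0.678 for Cox8b. The remaining case was the share of hepatocyte markers in BATdKO replicate 1, with a ratio of 0.709 at 3.6% of counts.

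The genotype effect differed between temperatures by a test of the difference itself. With all 24 libraries the effect at 30°C minus that at 8°C was 1.45 for Irak3, 1.63 for Gm47595, 1.68 for Myo5a, 0.60 for Gm5898, -0.89 for Cbr1, -1.32 for Ighm, -0.72 for Ivns1abp and -1.23 for Gngt2 on the log2 scale. Without both replicate 6 libraries it was 1.55 for Ucp1, 2.50 for Dusp4, -0.55 for Macrod1, 1.65 for Ucp3, 1.48 for Cidea and 2.12 for Pdk4, and none of these 6 passed with all 24 libraries.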

How the results depend on the processing

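No paired analysis was possible because the labels pair no mice across the genotypes. With all 12 libraries 0 genes were called at 30°C. DESeq2 called 90, the fit without both replicate 6 libraries 500, and the same 10 libraries fitted alone 158. Leaving out 1 library gave 0 to 369. Of the called genes, those with the same direction at 8°C numbered 0, then 62, 370 and 121 in the same order, and 0 to 282 with 1 library left out. The test between temperatures called 12 genes, 51 by DESeq2, 21 with robust dispersion, 7 at a threshold of 0.05, 44 without both replicate 6 libraries, and 7 (without BATdKO replicate 2) to 35 (without Cre- replicate 1) with 1 left out, including 32 without Cre- replicate 6 and 21 without BATdKO replicate 4. The causes were not tested.

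The log2 fold change of Tbl1xr1 was 0.44 with all 12, 0.80 without both replicate 6 libraries and 0.79 in those 10 alone, both past the threshold, and 0.33 to 0.67 with 1 library left out. That of Tbl1x was 0.35, 0.51 and 0.52, and 0.30 to 0.45. The 500 calls became 307 at a threshold of 0.05, 212 without Cre- replicates 1 and 3, and 270 to 603 with 1 further library left out, among them 270 without Cre- replicate 3, 291 without BATdKO replicate 1 and 320 without BATdKO replicate 3. Of 81 named genes called there, 46 passed under every alternative, 54 passed with each further library left out, and 6 (Ckm, Mef2c, Myh7, Myl2, Pfkm and Ryr1) changed sign under some setting, for each of them the fit without Cre- replicates 1 and 3.

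Uncalled genes near 0 changed sign. Without both replicate 6 libraries Adrb3 was at 0.0083 and mt-Nd4 at 0.11, and in the 10 libraries alone Adrb3 was at 0.016, Gm47595 at 0.0068 and mt-Nd4 at 0.11. With 1 library left out the log2 fold changes ran from -0.23 to 0.11 for Adipoq, -0.33 to 0.18 for Adrb3, -0.0023 to 0.27 for Angptl4, -0.096 to 0.073 for Ddx3y, -0.12 to 0.052 for Egfl7, -0.017 to 0.16 for Fasn, -0.24 to 0.18 for Gm47595, -0.11 to 0.015 for Gps2, -0.13 to 0.11 for Hdac3, -0.024 to 0.22 for Xist and -0.065 to 0.065 for mt-Nd4.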
